A study of Mus musculus with 8 samples.

Results

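The undifferentiated state of *Kdm4d* knockdown cells was examined by comparing 1 RNA-seq library of shKDM4D cells with 1 library of shControl cells, both taken at day 0. All genes with an RPKM (mapped reads divided by exon length and by library size) over 1 in at least 1 of both libraries were included, which gave 10402 of the 41325 gene symbols listed. The cells were C3H10T1/2, mesenchymal stem cells (MSCs) of the mouse that can be turned into fat cells. They carried an shRNA against *Kdm4d* or, in shControl cells, which the labels give as WT genotype, no knockdown of the genes under study. Day 0 was the second day after the cells became confluent, before insulin, dexamethasone and isobutylmethylxanthine were added, so both groups were in growth medium with serum and neither had received the hormones. The knockdown lines were puromycin-resistant clones that stably carry the shRNA plasmid, and which of the *Kdm4d* clones was sequenced is not given in the sources used here. One clone thus stands for the knockdown, and differences between clones cannot be told apart from differences due to the shRNA. The same 4 lines (shControl, shKDM4D, shNFIB and shMLL1) were also sequenced at day 5, which makes 8 libraries, and the other libraries are used here only beside the day 0 values.

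KDM4D is a histone demethylase that removes methyl groups from lysine 9 of histone H3, a mark of silenced chromatin. Unlike the other members of its family it leaves lysine 36 alone. Confluent mesenchymal cells of this kind slow their division, secrete collagens and proteoglycans, and hold the adipogenic factors at low levels until the hormones are given. The comparison shows which transcripts already differed at that point.

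The deposited RPKM values correspond to 26637979 mapped reads in the shControl library and 19538984 in the shKDM4D library. *Kdm4d* itself was covered by 2 reads in shControl and 1 read in shKDM4D cells, a log2 ratio of the reads of -0.55 with an interval from -6.44 to 3.71, so its knockdown was not detectable at this depth. Its RPKM stayed under 1 in both, and it is not among the genes tested. At day 5 *Kdm4d* had 13 reads in shControl and 4 in shKDM4D cells (RPKM 0.235 and 0.0647). The study reported a decrease of KDM4D in its knockdown lines by RT-qPCR and immunoblot. The other genes of the family were present and close to equal at day 0. *Kdm4a* had an RPKM of 14.04 in shControl and 12.4 in shKDM4D cells, *Kdm4b* 5.26 and 5.55, and *Kdm4c* 7.46 and 6.86. As there is 1 library a side, no test of the difference between conditions is possible, and the 95% intervals printed below are exact intervals of the ratio of recovered reads that cover counting error only. The log2 ratio means log2 of (RPKM + 0.1) in shKDM4D over shControl cells throughout, and a gene is called higher or lower where that ratio is more than 2-fold. In bulk RNA, fewer cells making a transcript and less of it per cell cannot be told apart.

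Of the 10402 genes, 114 (1.1%) were more than 2-fold higher in shKDM4D cells and 204 (1.96%) were more than 2-fold lower, while 10084 (96.9%) lay between. The median log2 ratio was 0.00, and lower calls outnumbered higher ones. When both libraries were divided by *Gapdh*, which had an RPKM of 247 in shControl and 326 in shKDM4D cells, the ratios shifted by -0.40 and the calls became 46 higher and 556 lower. The calls were more frequent at low expression. They made up 5.56% of the 3724 genes with an RPKM of up to 5 in the higher library, 1.69% of 5807 genes between 5 and 50, and 1.49% of 871 genes above 50. Among the 10065 protein coding genes, 92 were higher and 178 lower, and among 109 lincRNAs 9 were higher and 3 lower.

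**Figure D1:**
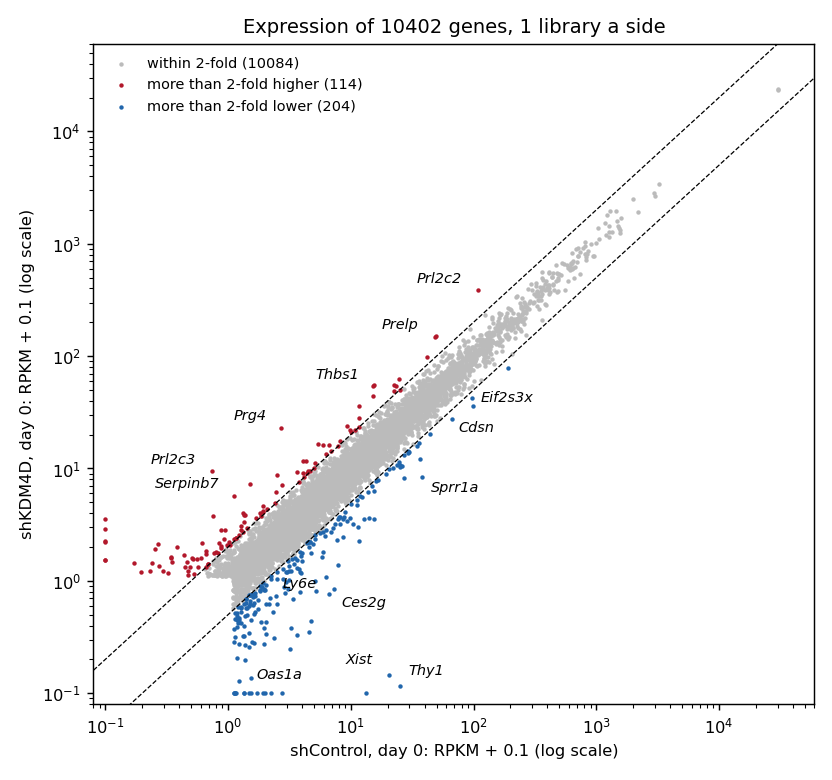
RPKM + 0.1 of each of the 10402 genes in shControl (horizontal) and shKDM4D cells (vertical) at day 0, both on log axes, 1 point a gene. The dashed lines mark a 2-fold difference; 114 genes lie above the upper line and 204 below the lower one, with *Thy1* and *Xist* among the genes farthest below it.

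Above an RPKM of 50, 13 genes were called, and they were picked out after their values were seen. Higher in shKDM4D cells were *Prl2c2*, *Prelp*, *Wisp2*, *Creb3l1*, *Ccdc80*, *P4ha3*, *Plpp3*, *Thbs1* and *Bnip3*. *Prelp*, a small leucine-rich proteoglycan, had an RPKM of 49.3 in shControl and 152 in shKDM4D cells, and *Wisp2*, a secreted protein of the CCN family, 48.7 and 147. *Creb3l1*, a transcription factor that drives collagen secretion, had 41.4 and 97.7, and *P4ha3*, a subunit of the prolyl hydroxylase that modifies collagen, 22.3 and 55.3. Lower were *Cdsn*, *Eif2s3x*, *Ogn* and *Mir6236*. *Cdsn*, an adhesion protein of the epidermis, had 98.3 and 35.6, and *Ogn* (osteoglycin), another small leucine-rich proteoglycan, 66.5 and 27.5. *Prl2c2* had the largest of these ratios, a log2 value of 1.84.

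In all, 20 genes switched off, meaning an RPKM over 1 in shControl and under 0.1 in shKDM4D cells (0.192% of the genes tested), and 8 switched on by the reverse rule (0.0769%). The deepest of the switched-off genes was *Thy1*, which encodes the CD90 antigen used to identify mesenchymal stem cells (chromosome 9 of GRCm38, from 44043384 to 44048579). It had 1995 reads in shControl cells (RPKM 25.01) and 1 read in shKDM4D cells (RPKM 0.0171), a log2 ratio of -7.74. The log2 ratio of the reads was -10.52, with an interval from -15.82 to -8.04. *Thy1* was also nearly absent from the shNFIB library at day 0 (RPKM 0.0179) and present in the shMLL1 library (11.8). At day 5 it stayed at 22.6 in shControl and 0.139 in shKDM4D cells.

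*Xist*, the long noncoding RNA that coats the inactive X chromosome of female cells (chromosome X, from 103460366 to 103483254), had 9767 reads in shControl and 16 in shKDM4D cells (RPKM 20.4 and 0.0456). This was a log2 ratio of -7.14. Unlike *Thy1*, *Xist* was present in the shNFIB (13.0) and shMLL1 libraries (20.2) at day 0, and at day 5 it had an RPKM of 29.2 in shControl and 0.0155 in shKDM4D cells. The X chromosome as a whole did not move with it, since the median log2 ratio of its 326 tested genes was -0.02. Genes known to escape X inactivation, listed after the values were seen, were all below 0 (7 of 7, median -0.50), beside 5134 of the 10402 genes below 0 in all. At day 5, 5 of the 7 were below 0 and 2 above, with a median of -0.44. *Eif2s3x*, a translation initiation factor subunit, was at 97.1 in shControl and 42.1 in shKDM4D cells, against 101 in shNFIB and 119 in shMLL1 cells. Its log2 ratio was -1.20 (interval -1.26 to -1.15) at day 0 and -1.04 at day 5. The histone demethylases *Kdm6a* and *Kdm5c* were at -0.83 and -0.50, and the RNA helicase *Ddx3x* at -0.04. The Y-linked genes *Sry*, *Ddx3y*, *Eif2s3y*, *Kdm5d* and *Uty* were at 0 in both libraries.

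Among the other genes that switched off, 15 of the 20 had no read at all in shKDM4D cells. *Oas1a*, an antiviral enzyme induced by interferon, had 133 reads in shControl cells and none in shKDM4D cells, which is at least 32.5-fold lower when 3 reads are taken as the limit. *Aim2*, a sensor of cytosolic DNA, had 171 reads and none, at least 41.8-fold lower. *Perp*, a p53 target found in desmosomes, had 65 reads and none (at least 15.9-fold lower), and *Tnmd* (tenomodulin), a membrane protein of tendon cells, had 50 reads and none (at least 12.2-fold lower). *Khdrbs3* had 111 and 2 reads and *Slc15a2*, a peptide transporter, 250 and 14. The antisense transcript Gm13528 had 143 reads and none, and it was listed at 0 in shNFIB and at an RPKM of 49.8 in shMLL1 cells. The remaining switched-off genes with annotated exons, apart from *Rpp25* (54 reads and 1), had under 50 reads in shControl cells. They included the histone gene *Hist1h4m* and the ribosomal protein retrogene *Rps27rt*, both members of families of near-identical genes among which reads cannot be assigned with certainty. By the same rule 6 of the 20 were also off at day 5, namely *Xist*, *Oas1a*, *Aim2*, *Perp*, *Tnmd* and Gm13528. In the shNFIB library 14 of the 20 were under 0.1 at day 0, and in the shMLL1 library 10.

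**Figure D2:**
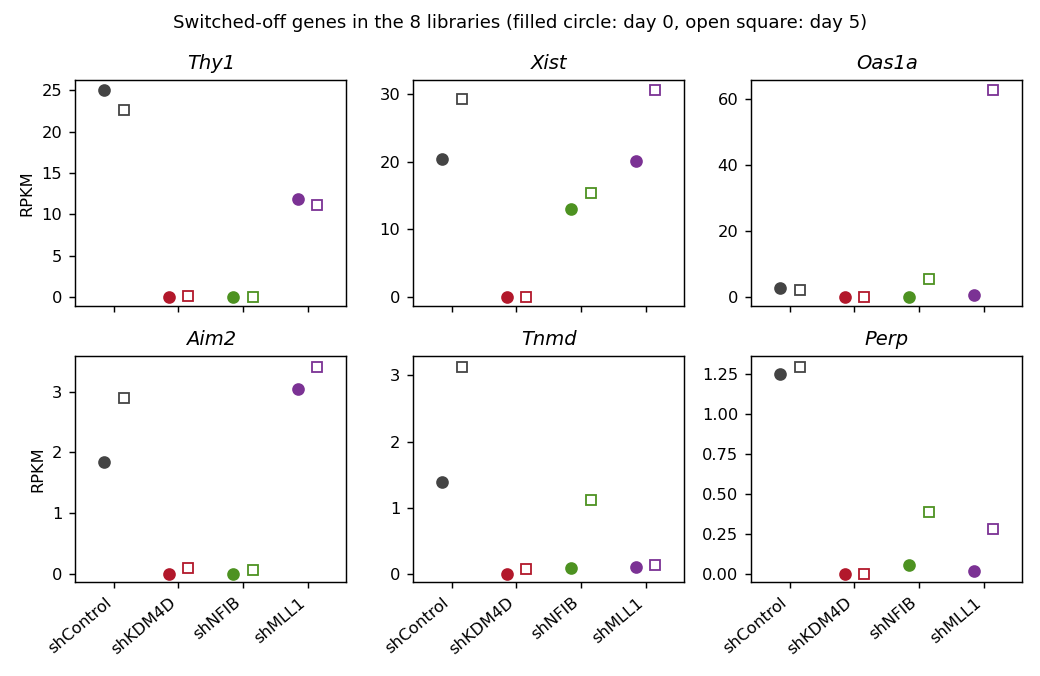
RPKM (vertical, linear, each gene with its own scale) of 6 switched-off genes in each of the 8 libraries, with day 0 as filled circles and day 5 as open squares. *Xist* is near 0 in the shKDM4D libraries alone, *Thy1* and *Aim2* in the shKDM4D and shNFIB libraries, and at day 0 *Tnmd* and *Perp* are under 0.1 in all 3 knockdown lines.

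The 8 genes that switched on were covered by far fewer reads, from 14 to 76 in shKDM4D cells. They were the proliferin *Prl2c5*, the histone genes *Hist1h2ag* and *Hist1h4n*, and 5 symbols without a gene name (B230220B15Rik, Gm10273, Gm28037, Gm47223 and Gm6741, the last a pseudogene). None of these met the same rule at day 5. B230220B15Rik was at 0.113 in shControl and 1.59 in shKDM4D cells at day 5, which missed the rule narrowly.

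The position of a gene went with its ratio. On chromosome 10, 437 of 508 tested genes (86.0%) were below 0 and the median log2 ratio was -0.34. On chromosome 18, 237 of 267 (88.8%) were below 0 with a median of -0.32. Chromosome 1 moved the other way, with 499 of 578 genes (86.3%) above 0 and a median of 0.26, and so did chromosome 2, with 685 of 844 (81.2%) above 0 and a median of 0.23. Chromosome 16 had a median of 0.16. The medians of the other autosomes and X lay between -0.09 and 0.09. These are small shifts, to 0.79 of the shControl level on chromosome 10 and to 1.19 times that level on chromosome 1.

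The shifts ran along whole chromosomes. In windows of 10 Mb with at least 10 tested genes, all 16 windows of chromosome 1 had medians above 0 (0.18 to 0.32), as did all 18 of chromosome 2, and all 9 of chromosome 18 had medians below 0 (-0.49 to -0.22). On chromosome 10, 12 of 13 windows were below 0, the exception being the first. Chromosomes 8 and 3, near 0 as a whole, each held a shifted stretch. On chromosome 8, the 75 genes in the window from 120000001 to 130000000 had a median of -0.43 with 68 below 0, while no other window of the chromosome was under -0.09. On chromosome 3, the 16 genes in the window from 10000001 to 20000000 had a median of -0.52, with 15 below 0. Most of these shifts were found again at day 5, in libraries that share nothing with the day 0 comparison but the lines. The median there was -0.32 on chromosome 10, -0.23 on 18, 0.19 on 1 and 0.22 on 2, and it was -0.39 in the last window of chromosome 8 and -0.48 in the one of chromosome 3. The shNFIB library had a median of -0.42 in that window of chromosome 8 and of -0.26 in that of chromosome 3, against -0.05 and 0.08 in the shMLL1 library, with the shControl library in common. Over whole chromosomes, the shNFIB and shMLL1 libraries had medians of 0.02 and -0.04 on chromosome 10, -0.04 and 0.00 on chromosome 18, 0.12 and -0.07 on chromosome 1, and 0.13 and -0.09 on chromosome 2. These lines had shifts of their own, such as -0.30 on chromosome 15 in shNFIB and -0.31 on chromosome 14 in shMLL1 cells. Whether the number of copies of these chromosomes differs between the lines was not tested.

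**Figure D3:**
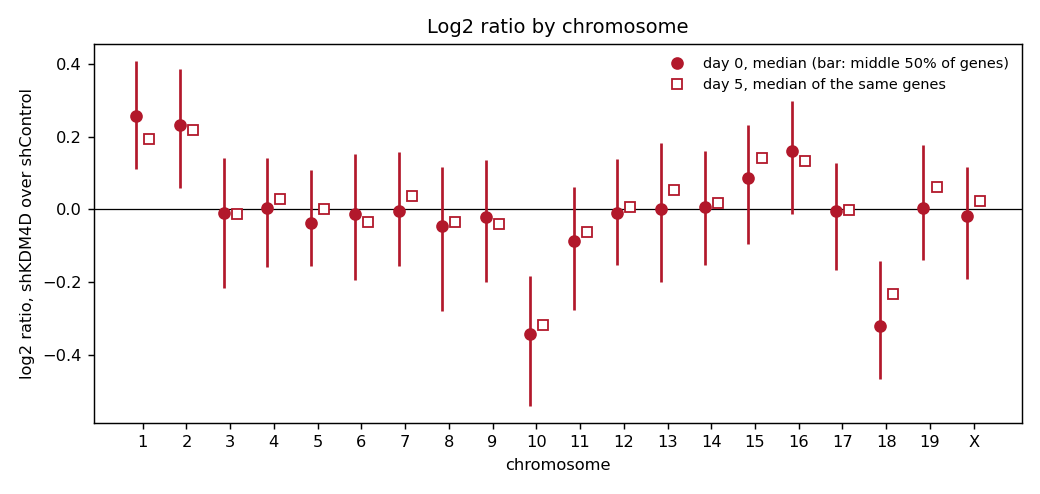
Median log2 ratio (shKDM4D over shControl) of the tested genes of each autosome and of X at day 0 (filled circles, with bars over the middle 50% of genes) and of the same genes at day 5 (open squares). Chromosomes 1, 2, 10 and 18 stand away from 0 on both days, and their bars lie wholly on 1 side of 0.

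With the median of its chromosome subtracted from each gene, 105 genes were higher and 194 lower, beside 114 and 204 without it. The subtraction uses whole chromosomes, so it leaves the shifted stretches of chromosomes 3 and 8 largely in place. Where the subtraction moved the count of calls of a gene group below, this is given. Division by *Gapdh*, in contrast, moves every ratio down by about 0.40, which turns the positive medians of chromosomes 1, 2 and 16 negative, and likewise the positive medians of all gene lists but mitosis, proliferins and glycolysis and hypoxia.

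Genes induced by interferon were lower as a group in shKDM4D cells. Interferon-stimulated genes are switched on through a short promoter element bound by STAT and IRF factors, and resting cells keep many of them at a low level. Of 50 listed, 34 were expressed, and 13 of them were more than 2-fold lower and none higher. Of all genes tested, 1.96% were lower and 1.1% higher. Their median log2 ratio was -0.71, and 33 of the 34 were below 0. Besides *Oas1a*, the largest falls were in *Ifi27l2a* (RPKM 6.57 in shControl and 0.663 in shKDM4D cells), *Bst2*, a membrane protein that tethers viruses (4.99 and 0.907), and *Usp18*, which removes ISG15 from proteins (1.01 and 0.183). *Ifit1*, which binds foreign RNA, had 800 and 150 reads (RPKM 11.3 and 2.89), a log2 ratio of -1.93. Outside the list, *Ly6e*, also induced by interferon, was at 6.18 and 0.974. Of the signalling genes, *Stat2* had a log2 ratio of -0.82 and *Irf7* of -1.14.

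The other knockdown lines, which share the shControl library, had a median of -0.59 (shNFIB) and -1.12 (shMLL1) over the same genes. At day 5 the median of the shKDM4D ratio was -0.32, with 29 of the 34 genes below 0. The genes of MHC class I and antigen processing had a median of -0.53 over 11 expressed members, 9 below 0, with only *H2-T23* (8.82 and 4.004) past 2-fold. The light chain *B2m* was close to equal (699.9 and 691), and the heavy chain *H2-K1* had 17.3 and 12.2.

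Stretches of the interferon gene promoters are shown because the element through which such genes are known to respond can be read in them. The motifs were chosen after the values were seen. Promoter sequences, 250 bases before to 50 after each start site, were taken from RefSeq (GRCm38.p6), where 26 of the 34 genes matched by symbol. The core of the interferon-stimulated response element, taken as GAAA, any 2 bases and GAAA again on either strand, was found in 16 of the 26 and in 9 of the 11 that were past 2-fold. It was found in 3.64% of the promoters of all genes tested and 3.99% of all promoters in the table. The motif can overlap itself, and the windows below give 1 match a gene with the motif in capitals, each read on the strand on which it matched.
Oas1a: ccttctcggGAAATGGAAActgaaaatc
Ifit1: cagcagtgaGAAACTGAAActgagactg
Bst2: caggaaaatGAAACTGAAAggctgcagt
Isg15: taggaaaagGAAACCGAAAcagaaaata
These stretches lie at chr5:120907527-120907554, chr19:34640795-34640822, chr8:71537578-71537605 and chr4:156200872-156200899, all on the minus strand and all upstream of the start site. *Isg15*, which encodes a ubiquitin-like modifier, had a log2 ratio of -1.70 (RPKM 1.54 and 0.406), and *Bst2* of -2.34. A match of these letters is a description of the sequence and no measure of binding.

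The genes of cholesterol synthesis and uptake lay below 0 throughout, 4 of them past 2-fold, beside 1.96% of all genes tested that were lower. The pathway runs from acetyl-CoA to cholesterol and is switched on by SREBP2 when the cell lacks sterol. The list also holds *Abca1* and *Abcg1*, which act in cholesterol export and are not part of that pathway. All 23 expressed members of 25 were below 0, from -1.25 to -0.23, with a median of -0.66. The 4 past 2-fold were *Lss* (RPKM 3.53 in shControl and 1.43 in shKDM4D cells), *Mvd* (7.35 and 3.08), *Fdps* (24.6 and 11.3), which are enzymes of the pathway, and *Insig1* (29.8 and 13.8), which holds SREBP in the endoplasmic reticulum. *Hmgcs1*, an early enzyme, had 49.6 and 29.8, and *Srebf2*, which encodes SREBP2, 31.1 and 20.9. *Lss* lies on chromosome 10 and *Mvd* near the end of chromosome 8, on stretches with medians below 0. With chromosome medians subtracted, 3 members were past 2-fold and the group median was -0.67. The median of chromosome 8 as a whole was -0.05. The subtraction therefore leaves most of the shift of the window holding *Mvd* (median -0.43) in place. The CCAAT box, the letters CCAAT on either strand, was in 15 of the 16 cholesterol promoters with an entry, beside 44.0% of the promoters of all genes tested and 41.1% of all promoters. At day 5 the median was -0.74 with 20 of the 23 below 0, and at day 0 it was -0.67 in shNFIB and -0.09 in shMLL1 cells against the same shControl library.

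Mitosis and replication genes were described separately. All 30 listed mitosis genes were expressed and all 30 were above 0 in shKDM4D cells, with a median of 0.62. In 3 of them the ratio was past 2-fold, beside 1.1% of all genes tested that were higher. None was past it after division by *Gapdh*, while the ratio of *Plk1* also fell short under the 3 other scalings tried. *Cenpf*, a kinetochore protein, had an RPKM of 9.20 in shControl and 24.0 in shKDM4D cells (3781 and 7247 reads), *Ube2c*, which tags mitotic cyclins for degradation, 22.4 and 48.7, and the kinase *Plk1*, just past the limit at 1.00, 24.9 and 49.9. *Ccnb1* (cyclin B1) had 18.6 and 35.9, and *Cdk1*, its partner, 27.3 and 29.2. The 30 genes of DNA replication, which act earlier in the cycle, had a median of 0.13 with 21 above 0 and none past 2-fold. Against *Gapdh* the mitosis median was 0.22 and the replication median -0.27. At day 5 the medians were 0.31 and 0.33. At day 0 the mitosis median was 0.64 in shNFIB and 0.60 in shMLL1 cells against the same control. The share of cells in division was not measured.

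The mitosis promoters are shown for the cell cycle genes homology region, the letters TTTGAA, which is known from genes expressed in late G2 and mitosis. On either strand it was found in 18 of 25 mitosis promoters (72.0%) and in 2 of 24 replication promoters (8.33%), beside 14.3% of the promoters of all genes tested and 20.2% of all promoters. The letters can share bases with the interferon element. The matches in the genes past 2-fold are printed with the motif in capitals, with *Cdc20*, an activator of mitotic exit (27.9 and 44.6), for comparison.
Cenpf: gcggcgggcagTTTGAAtcgctcgtgct
Ube2c: cgccgcccgcgTTTGAAttgcaaccctc
Plk1: ccagcgccgcgTTTGAAttcggggagga
Cdc20: gacagttgggtTTTGAAggagccaatga
They lie at chr1:189688068-189688095, chr2:164769889-164769916, chr7:122159454-122159481 and chr4:118437345-118437372, the one of *Plk1* on the plus strand and the others on the minus strand. Those of *Cenpf* and *Plk1* lie downstream of the start site.

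Among the glycolysis and hypoxia genes 2 were more than 2-fold higher and none lower, beside 1.1% and 1.96% of all genes tested. Of 26 expressed members, 23 were above 0 and the median was 0.48, and 0.08 after division by *Gapdh*, which also put *Bnip3* under 2-fold. *Gapdh* is itself a member of this list, with a log2 ratio of 0.40. Dividing by it takes a member's own rise out of the list, so the 0.08 cannot decide whether the list rose. Between the day 0 libraries the RPKM of *Gapdh* ranged from 159 (shNFIB) to 326 (shKDM4D). *Pdk1*, which turns pyruvate away from the mitochondria, had an RPKM of 4.22 in shControl and 11.6 in shKDM4D cells, a log2 ratio of 1.44 (interval 1.34 to 1.58). *Bnip3*, a mitophagy receptor induced by low oxygen, had 23.3 and 53.8. Of the enzymes, *Ldha* was at 162 and 241 and *Pgk1* at 223 and 339. *Ndrg1*, another gene known to respond to low oxygen, went the other way (27.0 and 14.8), as did *Adm* (-0.66) and *Hk1* (-0.19). At day 5 the median was -0.09 and 17 of 26 members were below 0. With the shControl library in common, the day 0 median was -0.56 for shNFIB and -0.20 for shMLL1.

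The hypoxia response element core with its usual next base, ACGTGC on either strand, was in the promoters of 11 of 25 glycolysis and hypoxia genes with an entry, beside 9.79% of the promoters of all genes tested and 6.68% of all promoters. The windows of *Pfkfb3*, a regulator of glycolysis (log2 ratio 0.99), *Pgk1* (0.61) and *Bnip3* (1.21) show it in capitals.
Pfkfb3: tccgcgccgtgACGTGCcaagctgtgac
Pgk1: agactagtgagACGTGCtacttccattt
Bnip3: gcacgcgccgcACGTGCcacacgctccc
They lie at chr2:11553973-11554000, chrX:106186957-106186984 and chr7:138909597-138909624, all on the minus strand and upstream of the start site.

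The transcripts of the mitochondrial genome had a median of 0.37 over 13 genes, 11 of them above 0 and none past 2-fold, and the median turned to -0.03 when both libraries were divided by *Gapdh*. *mt-Cytb* had an RPKM of 1216 in shControl and 1809 in shKDM4D cells, and *mt-Co1* 1997 and 2512. *mt-Atp8* was at 3012 and 2658. The nuclear genes of the respiratory chain had a median of -0.08 over 33 genes, and those of the cytosolic ribosome had one of -0.05 over 46. At day 5 the mitochondrial median was -0.13. Among the most abundant transcripts, *S100a11*, a calcium-binding protein, had 1305 and 1958 and vimentin (*Vim*) 1040 and 1377, while *Eef1a1*, a translation elongation factor, had 2198 and 1906. The rRNA-like transcript AY036118 was at 30076 and 23958, and with CT010467.1 it took 10.2% of the reads of the shControl library and 7.95% of those of the shKDM4D library. Leaving the 1% most abundant genes out of the library totals moved the ratios by -0.01.

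**Figure D4:**
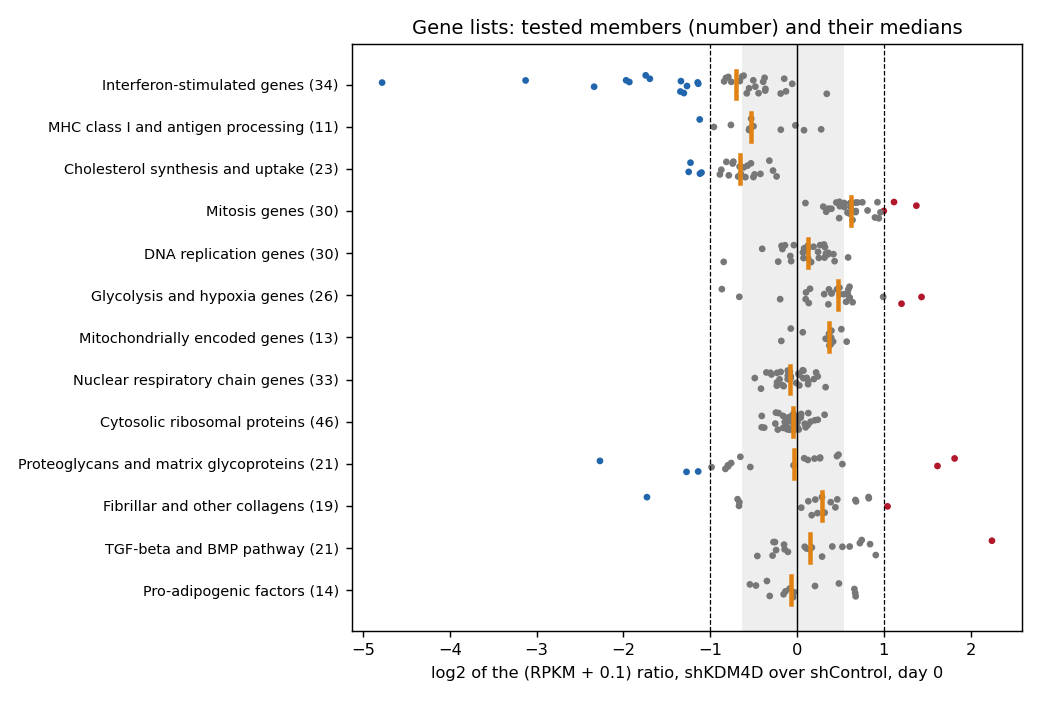
Log2 ratios of the tested members of 13 gene lists (1 point a gene, number of genes in parentheses), with members more than 2-fold higher in red and lower in blue, and the list median as an orange bar. The grey band spans the 5th to 95th percentile of all 10402 genes and the dashed lines mark 2-fold. Interferon and cholesterol genes lie to the left of 0 and mitosis genes to the right.

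Extracellular matrix genes held calls in both directions, beside 1.1% of all genes tested higher and 1.96% lower. Of 21 expressed proteoglycans and matrix glycoproteins, 2 were more than 2-fold higher, 3 were lower and the median was -0.04. Higher were *Prelp*, described above, and *Thbs1* (thrombospondin 1), an adhesive glycoprotein that activates TGF-beta, with an RPKM of 15.2 in shControl and 53.9 in shKDM4D cells (log2 ratio 1.82). Lower were *Ogn*, *Postn* (periostin, 34.5 and 15.6) and *Dcn* (decorin), a small proteoglycan that binds collagen, which had 3.72 and 0.693. *Dcn* was 579 and 79 reads, a log2 ratio of -2.27, and at day 5 it was at 31.8 and 3.03. It lies on chromosome 10. The 19 collagen genes had a median of 0.29 with 15 above 0 (-0.11 against *Gapdh*). At day 5 their median was -0.001, with 9 above and 10 below 0. Against the same shControl library, the day 0 median was -0.20 in shNFIB and -0.45 in shMLL1 cells. In shControl and shKDM4D cells at day 0, *Col3a1* had 140 and 225, *Col12a1* 41.1 and 73.1, and *Col1a1* 809 and 953. *Col8a1* was at 7.62 and 2.23, and *Col15a1* was at 1.13 and 2.43. *Prg4* (lubricin), the lubricant of joint surfaces, had 294 reads in shControl and 1927 in shKDM4D cells (RPKM 2.58 and 23.04, log2 ratio 3.11, interval 2.98 to 3.34). It was at 8.88 in shNFIB and 1.28 in shMLL1 cells. The protease and inhibitor genes, 21 in number, and 14 integrin and laminin genes held no call. *Itgb1*, the common beta chain of the integrins, had 265 and 154 at day 0 and 243 and 157 at day 5, and lies in the shifted stretch of chromosome 8.

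Secreted regulators of signalling were called in both directions, beside 1.1% of all genes tested higher and 1.96% lower. *Rspo3*, a protein that strengthens Wnt signals, had an RPKM of 11.6 in shControl and 35.9 in shKDM4D cells, a log2 ratio of 1.62 (interval 1.52 to 1.74), against 5.39 in shNFIB and 1.96 in shMLL1 cells. It stayed higher at day 5 (39.4 and 124). Its relative *Rspo2* was at 35.4 and 19.2, under 2-fold. *Sfrp1*, which binds and blocks Wnt proteins, had 3.04 and 0.925. The Wnt ligands *Wnt1*, *Wnt6*, *Wnt10a* and *Wnt10b* had at most 5 reads in either library. The 10 expressed ligands and receptors of the pathway held no call and had a median of 0.10. Of the 21 expressed genes in the TGF-beta and BMP list 1 was more than 2-fold higher and none lower, with *Inhba* at 4.98 and 9.43 and *Fst*, its inhibitor, at 4.19 and 7.09. Among 32 growth factor genes *Fgf2* (0.830 and 2.24) and *Angpt1* (8.09 and 17.4) were higher and *Angptl4*, an inhibitor of lipoprotein lipase, was lower (1.38 and 0.156). Of 19 genes for chemokines, cytokines and acute-phase proteins, *Serping1*, which inhibits the complement protease C1s, was higher (1.24 and 3.24), and *C1s1*, which encodes that protease, was lower (26.9 and 8.18), as was haptoglobin (*Hp*, 61 and 11 reads). With the chromosome medians subtracted 4 of the 19 were lower.

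The proliferins formed the only run of 3 neighbouring tested genes that were all past 2-fold in 1 direction. These are placental hormones of the prolactin family that growing fibroblasts also make. *Prl2c3*, *Prl2c2* and *Prl2c5* lie between 12790816 and 13191923 on chromosome 13. *Prl2c2* had an RPKM of 108 in shControl and 387 in shKDM4D cells, and it was at 192 in shNFIB and 397 in shMLL1 cells. *Prl2c3* had 23 and 248 reads (RPKM 0.635 and 9.33), and *Prl2c5* 3 and 25. The genes are close copies, since 60.0% of the stretches of 50 bases of *Prl2c3* transcripts also occur in *Prl2c2* transcripts and 71.5% the other way, so the split of reads between them is uncertain. At day 5 *Prl2c2* was at 6.88 and 25.4, a log2 ratio of 1.87.

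Further genes were named by the size of their ratio. Among the 12 highest with an RPKM of at least 5, pseudogenes, small RNAs and Gm or Rik symbols left out, the remaining ones were *Serpinb7*, a protease inhibitor (1.02 and 5.65), AI662270 (1.41 and 7.21), *Plpp3*, a lipid phosphatase (15.4 and 55.1), *Ak4*, a mitochondrial adenylate kinase (2.38 and 8.64), and *Pcolce2*, an enhancer of procollagen processing (5.87 and 16.2). Among the 12 lowest by the same rule were *Ces2g*, a carboxylesterase (7.16 and 0.745), AL732506.1 (7.75 and 1.27), *Def6* (11.7 and 2.15), *Sprr1a*, a component of the cornified envelope (38.2 and 8.25), and *Igsf10* (13.9 and 3.55). *Cd74*, the invariant chain of MHC class II, had 5.75 and 1.52. *Actg2*, the smooth muscle gamma actin, had 12.8 and 3.45, and 2 more of the 16 expressed smooth muscle and contractile genes were lower, *Csrp2* (36.6 and 12.05) and *Acta1* (57 and 15 reads). With the chromosome medians subtracted 4 of the 16 were lower. Of all genes tested, 1.96% were lower without the subtraction.

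Over all 10402 genes, 1.1% were called higher and 1.96% lower at day 0. The lists of adipogenic factors are too short for no call or 1 call to be told apart from these shares. None of the 14 expressed pro-adipogenic factors was past 2-fold, with a median of -0.06, and of the 16 expressed anti-adipogenic factors 1 was, the transcription factor *Snai1* (11.5 and 23.3, a log2 ratio of 1.01 that was no longer past the limit with chromosome medians subtracted). *Pparg*, the master regulator of fat cell formation, had an RPKM of 8.20 in shControl and 5.598 in shKDM4D cells, and *Cebpa*, its partner, 2.05 and 1.59. The early factors *Cebpb* (38.3 and 61.1) and *Cebpd* (19.6 and 31.3) had ratios above 0. *Fabp4*, a fatty acid carrier of fat cells, had 79 and 17 reads and an RPKM under 1 in both. Of 7 expressed genes of adipocyte function 6 were below 0, with *Scd1*, a desaturase, past 2-fold (27.0 and 13.2). The chromatin lists held no call, which in lists of this length cannot be told apart from the shares over all genes. The 12 methyltransferases and proteins of H3K9 heterochromatin had a median of 0.16 with 11 above 0 (-0.24 against *Gapdh*) and a range from -0.07 to 0.33. Their median was 0.10 with chromosome medians subtracted. Against the same shControl library it was 0.11 in shNFIB and 0.15 in shMLL1 cells. The 17 NFI and MLL complex genes had a median of 0.02, with *Nfib* at 9.92 and 11.5, *Kmt2a* at 5.17 and 4.68, and *Ash2l* at 9.18 and 9.34. None of the 42 germline genes listed, many of which are held silent by H3K9 methylation, reached an RPKM of 1 in either library.

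In the remaining lists the number of calls was small, beside 1.1% of all genes higher and 1.96% lower. A single call in a list of 20 genes already exceeds those shares. The lineage transcription factors and imprinted genes lay well above them, each on few genes. Of 25 expressed lineage transcription factors 3 were lower, *Osr2* (2.21 and 0.424), *Irx1* (9.80 and 3.52) and *Osr1* (23.9 and 10.7), which are factors of limb and kidney development, while the 5 expressed Hox genes lay between -0.39 and -0.06. Of 13 expressed imprinted genes, *Peg10* was higher (0.771 and 1.94), and *Airn* (1.56 and 0.683) and *Dcn*, which is imprinted in the placenta, were lower. Of 12 expressed cadherin and protocadherin genes 11 were below 0 (median -0.50), with *Pcdhb14* at 353 and 31 reads. The clustered protocadherins lie on chromosome 18, and with chromosome medians subtracted the median was -0.24. *Atf3* was the only immediate early gene past 2-fold (2.75 and 0.784), although 2 were with chromosome medians subtracted. *Perp* and *Bbc3* (4.35 and 2.10) were lower among the p53 targets, *Cth* (9.93 and 4.71) among the 24 genes of the ATF4 pathway, and *Tgm2* (3.41 and 1.499) among 20 YAP/TAZ targets. The 20 endoplasmic reticulum chaperones and 21 antioxidant genes of the NRF2 pathway held no call.

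The labelled cell type was checked against its markers. All 8 mesenchymal markers had an RPKM over 1 in shControl cells, and 7 of them in shKDM4D cells, the exception being *Thy1*. Of the other surface markers of mesenchymal stem cells only *Mcam* (CD146) was past 2-fold (1.18 and 2.95). None of the 8 adipocyte, 5 osteoblast and 5 skeletal muscle markers reached an RPKM of 1, and their sums were 0.688 and 0.254 for adipocytes, 0.101 and 0.191 for osteoblasts, and 0.0399 and 0 for muscle, in shControl and shKDM4D cells. The adipocyte markers *Plin1*, *Lep*, *Cfd* and *Pck1*, the osteoblast markers *Ibsp* and *Sp7* and the muscle markers *Myod1* and *Myf5* were at 0 in both. One of 5 chondrocyte markers, *Col2a1*, was present on both sides (24.5 and 27.5). One endothelial (*Tek*) and 1 epithelial marker (*Cdh1*) were just above 1 in both, with the sum of the endothelial list at 1.72 and 1.26 and that of the epithelial list at 1.98 and 1.56. Of 6 leukocyte markers *Cd14* (6.61 and 4.79) and *Cd68* (1.64 and 0.570) were detected, with a summed level of 8.85 and 5.83, while *Adgre1* was at 0 in both, as were *Acan*, *Emcn*, *Epcam* and *Krt5* of the other lists. The part of such cells in the results was not tested.

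The day 5 libraries share no sample with the day 0 comparison. Of the 114 genes higher at day 0, 82 (71.9%) were above 0 and 34 (29.8%) more than 2-fold higher at day 5, where 0.894% of the same 10402 genes were that much higher. Of the 204 genes lower at day 0, 180 (88.2%) were below 0 and 89 (43.6%) more than 2-fold lower at day 5, where 2.25% of the genes were. The other direction past 2-fold at day 5 was seen for 7 of the higher and 4 of the lower genes. Across the 10402 genes the log2 ratios of both days had a Pearson correlation of 0.52, and of 0.60 across the 6678 genes with an RPKM of at least 5 in the higher day 0 library. This is a description across genes, which are not independent replicates, and the cells of both days come from the same lines. Besides *Thy1* and *Xist*, the genes that kept ratios past 4-fold at both days included *Ces2g* (-3.10 and -3.59), *Ly6e* (-2.55 and -2.83), *Sprr1a* (-2.20 and -3.03), *Dcn* (-2.27 and -3.35) and *Angptl4* (-2.54 and -3.12). *Plpp3*, *Wisp2*, *Prelp* and *Ak4*, in contrast, had ratios from 0.35 to 0.64 at day 5.

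**Figure D5:**
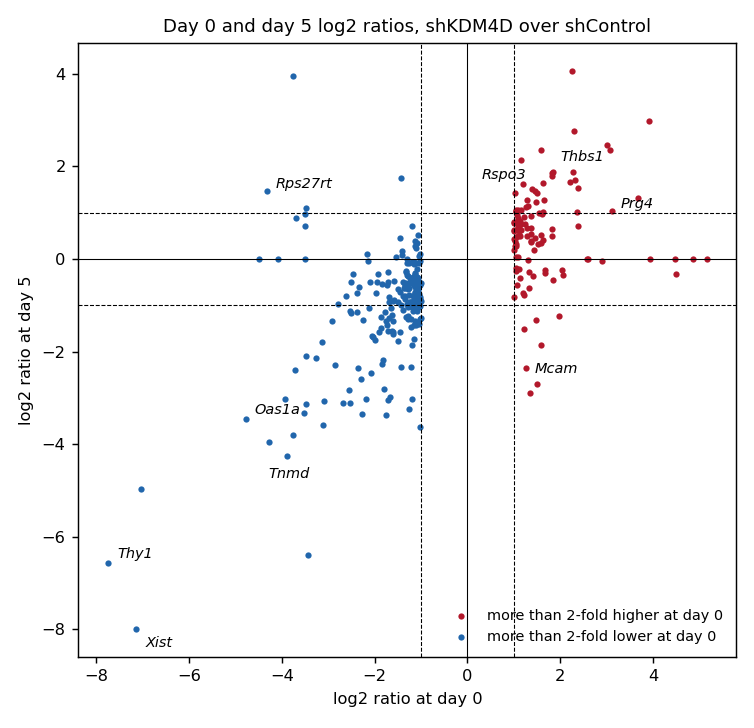
Log2 ratio (shKDM4D over shControl) at day 0 (horizontal) and day 5 (vertical) of the 114 genes higher (red) and the 204 genes lower (blue) at day 0, with dashed lines at 2-fold. Most lower genes fall in the lower left of the plot, 89 of them below the lower dashed line, and 34 of the higher genes lie above the upper one.

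The other knockdown lines at day 0 give a second view of the calls. With the shKDM4D library held in common, 42 of the 114 higher genes were also more than 2-fold above the shNFIB library. Above the shMLL1 library there were 68, and above both 31. Of the 204 lower genes, 49 were more than 2-fold below the shNFIB library, 71 below the shMLL1 library and 24 below both. The share of all genes past 2-fold against both lines was not counted. The same shKDM4D values also chose these genes, so part of any excess over all genes is built in. Among all 10402 genes, 3.08% were that much higher and 1.43% that much lower than in shNFIB cells, with 95.5% neither, and 4.53% and 1.43% in comparison with shMLL1 cells, with 94.0% neither. *Xist*, *Eif2s3x*, *Rspo3* and *Prg4* set shKDM4D cells apart from all 3 other lines, with *Prg4* at 23.04 against 8.88 in the nearest. For *Cdsn* and *Igsf10* the shControl library had the highest of the 4 levels, with *Cdsn* at 98.3 in shControl against 35.6, 2.26 and 3.998, and *Igsf10* at 13.9 against 3.55, 1.66 and 1.11 in shKDM4D, shNFIB and shMLL1 cells.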

How the data were processed

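RNA-seq was carried out on 1 library per condition (C3H10T1/2 cells, SMARTer library kit, Illumina HiSeq). The authors mapped the reads with CLC Genomics Workbench to GRCm38 and deposited RPKM values per gene symbol, in a table for each library, with no counts. RPKM divides by exon length and mapped reads, so a few abundant transcripts can shift all other values. The low values were whole multiples of 1 read given the exon lengths of GENCODE M21, so reads were recovered from these steps. In both day 0 libraries 96.0% of values worth 1 to 1000 reads were whole to within 0.02. 3 reads on 1 kb of exon correspond to an RPKM of 0.113 in shControl and 0.154 in shKDM4D cells.

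Groups were taken from the sample titles. Log2 ratios used a pseudocount of 0.1, and genes needed an RPKM over 1 in at least 1 library. Intervals are Clopper-Pearson intervals (95%) of the recovered reads, conditional on their sum. Positions came from GENCODE M21. With 1 library per condition no model was fitted and no p-value is given. Named genes were the 12 highest and 12 lowest ratios with an RPKM of at least 5, 6 genes switched on and 6 switched off with the highest RPKM, up to 4 members of each of 40 lists and 8 marker lists, the 6 largest RPKM rises and falls, neighbours in runs, and the genes of the study. Small RNAs, pseudogenes and Gm or Rik symbols were left out of the ratio, switched and RPKM rules unless fewer than 6 other genes remained. Others were chosen after their values were seen. The genes and lists were chosen with earlier results of these data known. The steps were tested on simulated libraries (Python 3.11.15, numpy 2.4.6, pandas 2.3.3, scipy 1.17.1). Alternatives were other scalings, pseudocounts and filters. Some results for single genes are not reported here.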

Additional observations from a re-analysis of the deposited data

Results flagged for a closer look

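The genes *Mcam*, *Ctla2a*, *Mgarp*, *Hist1h2ao* and *Rps27rt* were past 2-fold in opposite directions at day 0 and day 5 in shKDM4D over shControl cells, a difference between days that was not tested, as each value rests on 1 library a side. *Mcam* had a log2 ratio of 1.26 at day 0 and -2.35 at day 5 (RPKM 4.42 in shControl and 0.787 in shKDM4D cells at day 5). *Ctla2a*, a protease inhibitor, went from 1.34 to -2.89, with an RPKM that rose from 2.35 to 138 in shControl and from 6.12 to 18.5 in shKDM4D cells. *Mgarp*, a mitochondrial protein, went from 1.23 to -1.51. *Hist1h2ao* went from -3.76 to 3.95 and *Rps27rt* from -4.33 to 1.46, both with at most 19 reads in shControl cells at day 0 and both with near-identical copies elsewhere in the genome.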

How the results depend on the processing

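No paired analysis was possible because each condition has 1 library. The count of genes higher and lower, 114 and 204, came to 46 and 556 after division by Gapdh, 52 and 100 with a pseudocount of 1, 44 and 67 with an RPKM over 5, and 401 and 636 with no filter. It stayed within 1.5 times under the other scalings, a pseudocount of 0.01, the limit to protein coding genes, the removal of Gm and Rik symbols, and 2 alternatives chosen after seeing the data (chromosome medians subtracted, 50 reads or more). The 8 genes switched on became 0 with an RPKM over 5, 4 among protein coding genes and 3 without Gm and Rik symbols. The 20 switched off became 3 with an RPKM over 5 and 13 among protein coding genes. The median log2 ratio of all genes was -0.390 after division by Gapdh, -0.0047 with median-of-ratios scaling, -0.0078 without the most abundant transcripts, 0.0206 with an RPKM over 5 and -0.018 with no filter. The genes past 2-fold in the same direction on both days, 123, became 50 with a pseudocount of 1. Of 92 named calls, 90 stayed past 2-fold with median-of-ratios scaling and without the most abundant transcripts, 88 after quantile normalization and 76 after division by Gapdh, which ended 16 higher calls, and none changed sign. At these depths a gene of 1 kb with an RPKM near 0.1 is about 3 reads, so switched-on and switched-off calls of short genes rest on few reads, and the variation between cultures is unknown.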
